A study of Mus musculus with 4 samples.

Results

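Glycolysis and hypoxia response genes were examined in mouse otocysts in which floxed alleles of the T-box factor genes Tbx2 and Tbx3 were targeted by cre, against control otocysts. The 39 members were taken by gene name from the probes of the array, by a list made with earlier results of these data known. They comprised 17 glycolytic enzymes, 20 other hypoxia-induced genes and 2 alpha subunits of the hypoxia-inducible factor (HIF), of 18414 genes or unnamed targets tested in all. For each gene the brightest probe was used, and every member was well above background in all 4 mutant and all 4 control channels, so all 39 passed the filter on dim probes.

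Glycolysis splits glucose into pyruvate in the cytosol and yields ATP without oxygen, and lactate dehydrogenase then turns pyruvate into lactate, which leaves the cell through monocarboxylate transporters. When oxygen is low, HIF alpha subunits escape hydroxylation by prolyl hydroxylases, pair with Arnt and bind short DNA elements near target genes, among them most glycolytic enzymes, glucose and lactate transporters, Vegfa and mitophagy receptors. Mouse embryos in midgestation are known for high glycolytic activity, and isozymes of 1 step can be controlled separately.

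The mutant RNA, called Tbx2/3cDKO, came from embryos that carried Pax2-cre together with Tbx2(fl/fl) and Tbx3(fl/fl), and the control RNA from embryos labelled Tbx2(fl/?);Tbx3(fl/?), which leaves their second alleles open and names no cre. Both were NMRI embryos at E10.5, so both groups carried floxed alleles, and the otocyst, the vesicle that forms the inner ear, was dissected mechanically. Each of 4 two-colour arrays held 1 mutant and 1 control RNA, both male on replicates 3 and 4 and both female on the other arrays, with the dyes swapped within each sex. No label says whether samples were single embryos or pools, so p-values cover the variation among these RNAs alone, part of which may be technical, and with 4 arrays the precision is limited. The cre transgene is driven by Pax2 sequence and is active in the otic region, so cells of the dissected tissue outside that region are not targeted.

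Every ratio below is the log2 ratio of Tbx2/3cDKO over control, so a negative value means a lower level in Tbx2/3cDKO. Where 4 values are given they are those of replicates 1 to 4, and "higher" or "lower" calls have a limma adjusted p under 0.05 over all genes. Of all genes tested, 13.5% were called higher and 10.1% lower, and the median ratio was 0.00. Tbx3, a targeted gene, had ratios of -3.38, -3.48, -3.61 and -3.25 on replicates 1 to 4. Tbx2 had ratios of 0.15, 0.23, 0.14 and -0.27, with a limma adjusted p of 0.650, and no source used here says whether its probe lies in the deleted part. Otic epithelium markers were detected in both groups (13 of 13), with summed linear channel levels of 128083 to 146262 in Tbx2/3cDKO and 231218 to 251375 in control RNA.

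The enzymes were mostly lower in Tbx2/3cDKO otocysts, and the other hypoxia-induced genes were split. Of 17 glycolytic enzymes, 11 were lower, 1 was higher and 5 were not called, beside the 10.1% lower and 13.5% higher over all genes. Of 20 other hypoxia-induced genes, 5 were lower, 4 were higher and 11 were not called. Neither HIF alpha subunit was called at its brightest probe. The median fitted ratio was -0.25 over the enzymes, -0.02 over the other hypoxia-induced genes and 0.00 over all genes.

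The enzyme median lay below that of the other hypoxia-induced genes on all arrays, but the gap was close to absent on replicate 1. On replicates 1 to 4 the enzyme median was -0.13, -0.23, -0.14 and -0.30, and the median of the other hypoxia-induced genes was -0.13, 0.00, -0.01 and 0.06. The median of the other genes minus that of the enzymes was 0.00, 0.23, 0.13 and 0.36 on these arrays, with no test made on it. Counting the transporters Slc2a1, Slc2a3 and Slc16a3 and the regulators Pdk1, Pfkfb3 and Pfkfb4 with the enzymes gave medians of -0.24 for the enlarged group and 0.05 for the remaining genes. Ratios were below 0 on all 4 arrays for 11 of 17 enzymes, 7 of 20 other hypoxia-induced genes and 19.9% of all genes. The channel levels of Tbx2/3cDKO and control RNA did not overlap for 11 of 17 enzymes, 8 of 20 other hypoxia-induced genes and neither HIF alpha subunit, beside 23.2% of all genes. In bulk tissue, fewer cells of a type and less RNA per cell cannot be told apart.

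**Figure D1:**
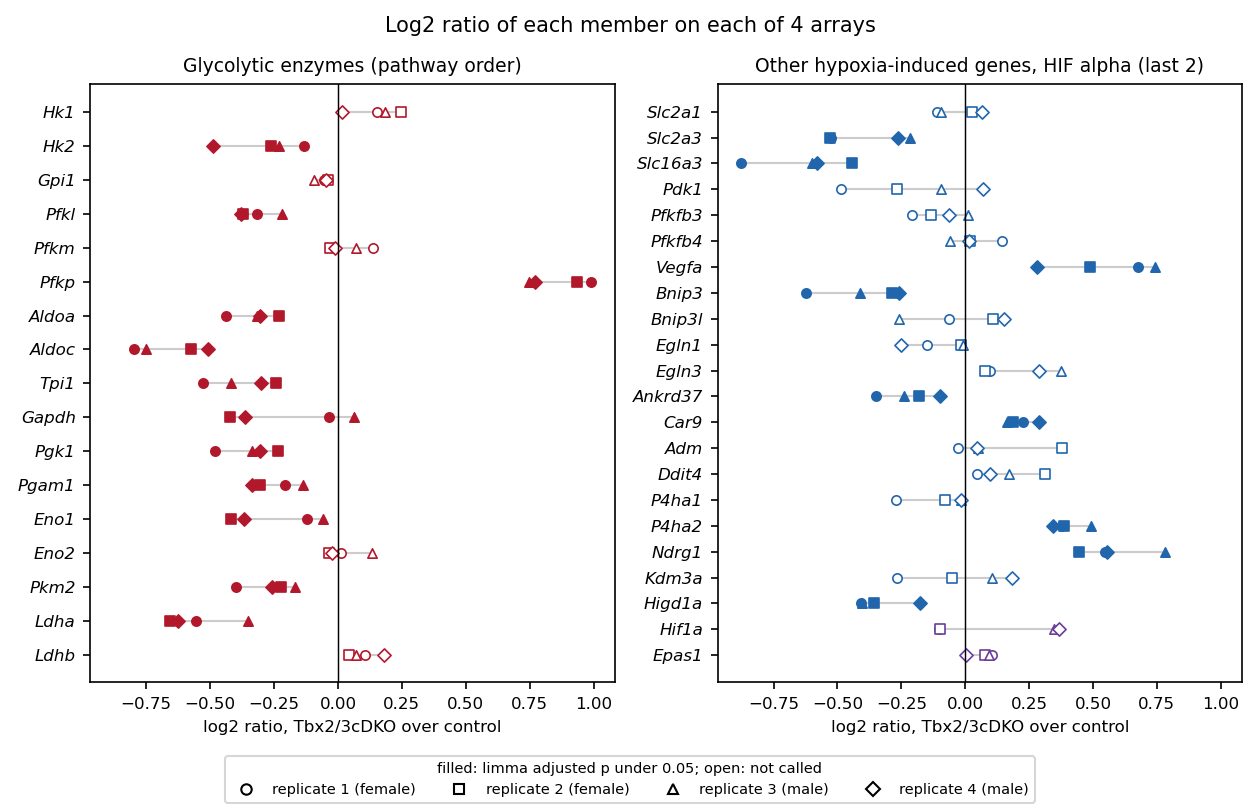
Log2 ratio of Tbx2/3cDKO over control for each member on each array (x axis), genes down the page, with filled symbols for genes called by limma. The enzymes from Aldoa to Pgk1 lie left of 0 apart from Gapdh on replicate 3, and the other hypoxia-induced genes fall on both sides. Pfkp is the only enzyme called on the right, while Hk1 and Ldhb, not called, lie nearer to 0 on the right on every array.

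**Figure D2:**
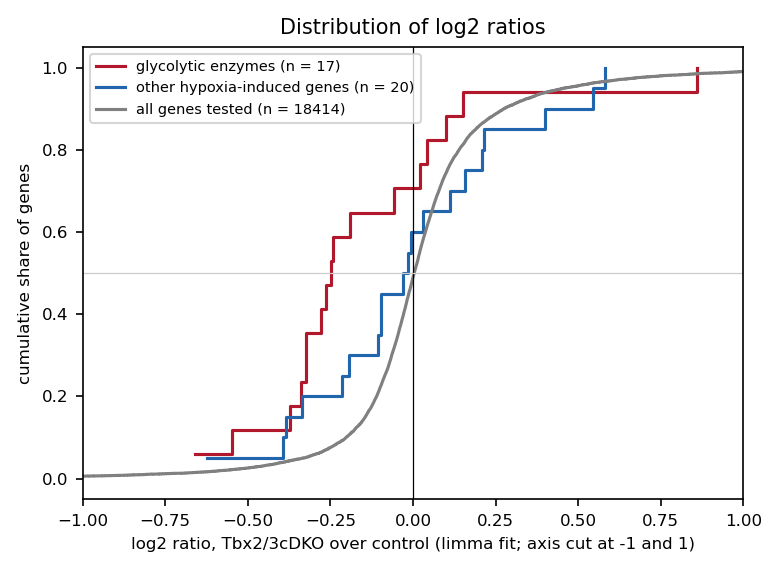
Cumulative share of genes (y axis) by fitted log2 ratio of Tbx2/3cDKO over control (x axis, cut at -1 and 1). The curve of the 17 enzymes has its median at -0.25, left of that of all 18414 genes at 0.00, and the curve of the 20 other hypoxia-induced genes crosses the all-gene curve just right of 0.

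The short element bound by HIF has the core ACGTG or GCGTG, and the promoters of some members called in each direction are shown for these letters. Sequences are from RefSeq (GRCm38.p6), 5′ to 3′ on the strand of the gene, and hold the 250 bases before the transcription start, with every ACGTG or GCGTG on either strand in capitals (on the other strand they read CACGT and CACGC). Where a gene had several starts, the one with the most matches was taken. Ldha, Pgk1, Slc16a3 and Bnip3 were lower in Tbx2/3cDKO, and P4ha2, Car9 and Pfkp were higher.
Ldha: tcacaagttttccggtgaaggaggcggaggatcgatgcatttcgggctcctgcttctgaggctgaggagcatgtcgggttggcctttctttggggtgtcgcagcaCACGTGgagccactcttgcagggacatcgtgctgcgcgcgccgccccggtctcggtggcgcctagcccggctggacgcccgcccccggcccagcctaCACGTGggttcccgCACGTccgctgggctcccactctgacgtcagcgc
Pgk1: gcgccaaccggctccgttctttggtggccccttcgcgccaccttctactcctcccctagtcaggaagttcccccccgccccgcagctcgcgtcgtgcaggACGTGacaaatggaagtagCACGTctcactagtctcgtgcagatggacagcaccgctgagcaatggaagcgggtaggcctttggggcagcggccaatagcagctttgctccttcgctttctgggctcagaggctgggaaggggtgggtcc
Slc16a3: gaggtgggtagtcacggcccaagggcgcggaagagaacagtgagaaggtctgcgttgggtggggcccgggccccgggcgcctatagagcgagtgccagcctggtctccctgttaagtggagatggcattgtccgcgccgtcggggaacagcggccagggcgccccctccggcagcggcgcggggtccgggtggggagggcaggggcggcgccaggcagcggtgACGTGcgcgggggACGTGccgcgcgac
Bnip3: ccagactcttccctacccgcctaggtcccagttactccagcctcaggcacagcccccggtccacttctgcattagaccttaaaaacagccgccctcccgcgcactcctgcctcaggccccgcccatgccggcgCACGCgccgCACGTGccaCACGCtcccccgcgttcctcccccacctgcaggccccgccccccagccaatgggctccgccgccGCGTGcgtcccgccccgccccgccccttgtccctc
P4ha2: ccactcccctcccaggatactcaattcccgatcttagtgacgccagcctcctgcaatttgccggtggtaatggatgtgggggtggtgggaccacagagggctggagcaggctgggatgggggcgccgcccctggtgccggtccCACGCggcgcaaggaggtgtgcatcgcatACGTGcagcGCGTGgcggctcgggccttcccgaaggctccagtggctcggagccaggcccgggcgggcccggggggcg
Car9: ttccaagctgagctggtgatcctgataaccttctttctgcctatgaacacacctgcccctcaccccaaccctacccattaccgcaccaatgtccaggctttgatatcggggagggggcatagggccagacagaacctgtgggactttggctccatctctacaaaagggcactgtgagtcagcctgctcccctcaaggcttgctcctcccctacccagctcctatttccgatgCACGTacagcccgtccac
Pfkp: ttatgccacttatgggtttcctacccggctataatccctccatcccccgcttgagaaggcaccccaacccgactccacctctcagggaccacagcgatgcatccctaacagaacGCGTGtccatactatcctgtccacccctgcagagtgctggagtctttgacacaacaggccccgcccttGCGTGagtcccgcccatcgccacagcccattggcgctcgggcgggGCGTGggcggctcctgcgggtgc
These stretches are chr7:46845554-46845803 (plus strand) for Ldha, chrX:106186850-106187099 (plus) for Pgk1, chr11:120948817-120949066 (plus) for Slc16a3 and chr7:138909507-138909756 (minus) for Bnip3. Those of the higher genes are chr11:54100674-54100923 (plus) for P4ha2, chr4:43506776-43507025 (plus) for Car9 and chr13:6648772-6649021 (minus) for Pfkp.

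Core letters were present in all the printed promoters, of both lower and higher genes, but these were a chosen set of the called members. Tpi1, lower and not printed, had 0 matches in its window. Ldha held 5 matches, 4 of them from 2 copies of the palindrome CACGTG, which matches on both strands. Bnip3 held 5 matches, P4ha2 and Pfkp 3 each, Pgk1 and Slc16a3 2 each, and Car9 1, which begins 18 bases before the start. The 3 matches of Pfkp were all GCGTG. In the full windows of 300 bases, which reach 50 bases past the start, 14 of 17 enzymes and 17 of 17 other hypoxia-induced genes with a window held at least 1 match, against 46.7% of 27025 gene symbols and 43.8% of 32851 windows. By call, 10 of 11 lower enzymes and 3 of 5 uncalled enzymes held a match, as did 4 of 4 lower, 3 of 3 higher and 10 of 10 uncalled other genes. The median G and C content was 62.0% over member windows and 52.7% over all windows, and its part in these shares was not tested. Epas1, Ndrg1, Slc2a3 and Bnip3l were not matched to a window.

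Among the enzymes that begin glycolysis, Hk2 was lower, and Hk1 and Gpi1 were not called. Hk2, a hexokinase that phosphorylates glucose, had ratios of -0.13, -0.26, -0.23 and -0.49, with a limma adjusted p of 0.0151. Hk1, the other hexokinase, had ratios of 0.15, 0.25, 0.19 and 0.01 and was not called (limma adjusted p = 0.114). The Tbx2/3cDKO levels of Hk2 lay below every control level. Those of Hk1 lay above every control level by a narrow margin (lowest 12.63 against a highest control level of 12.61). A second, dimmer Hk1 probe had ratios of 0.17, -0.01, 0.04 and -0.03, so it gave Hk1 no clear direction. Gpi1, which isomerises glucose-6-phosphate, had a ratio of -0.06 and was not called. Its 2 other probes both gave -0.03.

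Phosphofructokinase, which commits sugar to glycolysis, showed the widest split at the brightest probes, a ranking that rests on 1 of 2 Pfkp probes. Pfkp, the platelet-type subunit, had normalized log2 channel levels of 8.83, 8.60, 8.56 and 8.26 in Tbx2/3cDKO and 7.84, 7.66, 7.81 and 7.49 in control RNA. Every Tbx2/3cDKO level exceeded every control level, and the ratio was 0.86 ± 0.12 (SD, n = 4), or 1.82-fold higher, with a limma adjusted p of 0.000192. In the files' coordinates (mm9) the probe covers 6579124 to 6579183 of chromosome 13. A second Pfkp probe, at 6581718 to 6583872, gave 0.23 and was called as well (limma adjusted p over all probes 0.0257), so the size of the rise differed by probe. The probes were close in brightness, with mean log2 intensities of 8.13 and 7.93. Pfkl, the liver-type subunit, was lower with ratios of -0.32, -0.37, -0.22 and -0.38. Its channel levels overlapped between the groups although the ratio was below 0 on each array (limma adjusted p = 0.00422). Pfkm, the muscle-type subunit, had a ratio of 0.04 and was not called.

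Both aldolases fell. Aldoc, the brain-type aldolase, had log2 levels of 10.26, 10.32, 10.32 and 10.31 in Tbx2/3cDKO and 11.06, 10.89, 11.07 and 10.82 in control RNA. The Tbx2/3cDKO levels lay close together and all below the control levels. Its ratio was -0.66 ± 0.14 (SD, n = 4), or 1.58-fold lower (limma adjusted p = 0.000211), the most negative of the 39 members. The probe spans chromosome 11 from 78140198 to 78140257 (mm9). The ratios were -0.80 and -0.75 with the mutant in red and -0.57 and -0.51 with the mutant in green. Aldoa, the widely expressed aldolase, had ratios of -0.44, -0.23, -0.32 and -0.31 (limma adjusted p = 0.00496). Tpi1, which interconverts the triose phosphates, had ratios of -0.53, -0.24, -0.42 and -0.30 (limma adjusted p = 0.00247). Its other probe gave -0.41.

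Of the enzymes that turn triose phosphate into pyruvate, Pgk1, Pgam1, Eno1, Pkm2 and Gapdh were lower and Eno2 was not called. Pgk1, which makes ATP from 1,3-bisphosphoglycerate, had ratios of -0.48, -0.23, -0.34 and -0.30 (limma adjusted p = 0.00443). The file places this probe on chromosome 3 while Pgk1 lies on X, so signal from Pgk1 and from a related copy cannot be told apart. Pgam1, a phosphoglycerate mutase, had a ratio of -0.25 ± 0.09 (SD, n = 4; limma adjusted p = 0.012). Eno1, the widely expressed enolase, had ratios of -0.12, -0.42, -0.06 and -0.37, nearer to 0 with the mutant in red (replicates 1 and 3). Its limma adjusted p was 0.0132. Eno2, the neuronal enolase, had a ratio of 0.02 and was not called. Pkm2, the pyruvate kinase gene now named Pkm, had a ratio of -0.26 ± 0.10 (SD, n = 4; limma adjusted p = 0.0174).

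Gapdh, the triose phosphate dehydrogenase often used as a loading control, had the least steady fall. Its ratios were -0.03, -0.42, 0.06 and -0.36, below 0 on 3 arrays and apart by dye orientation. Its 7 probes gave mean ratios of -0.16 to -0.24, and 1 of them is placed on chromosome 8 rather than 6 in the files. The limma adjusted p was 0.0361, and the call was lost in 9 of 15 alternative analyses, including the scanner software's own ratios and each left-out array.

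Lactate dehydrogenase split by subunit. Ldha, the subunit that favours lactate formation, had log2 levels of 16.51, 16.37, 16.71 and 16.54 in Tbx2/3cDKO and 17.07, 17.03, 17.06 and 17.16 in control RNA. No Tbx2/3cDKO level reached a control level. Its ratio was -0.55 ± 0.14 (SD, n = 4), 1.46-fold lower (limma adjusted p = 0.000723), and the probe spans chromosome 7 from 54110937 to 54110996 (mm9). The other Ldha probes gave -0.64 and -0.58. Ldhb, the subunit that favours pyruvate, had ratios of 0.11, 0.04, 0.07 and 0.18 and was not called.

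**Figure D3:**
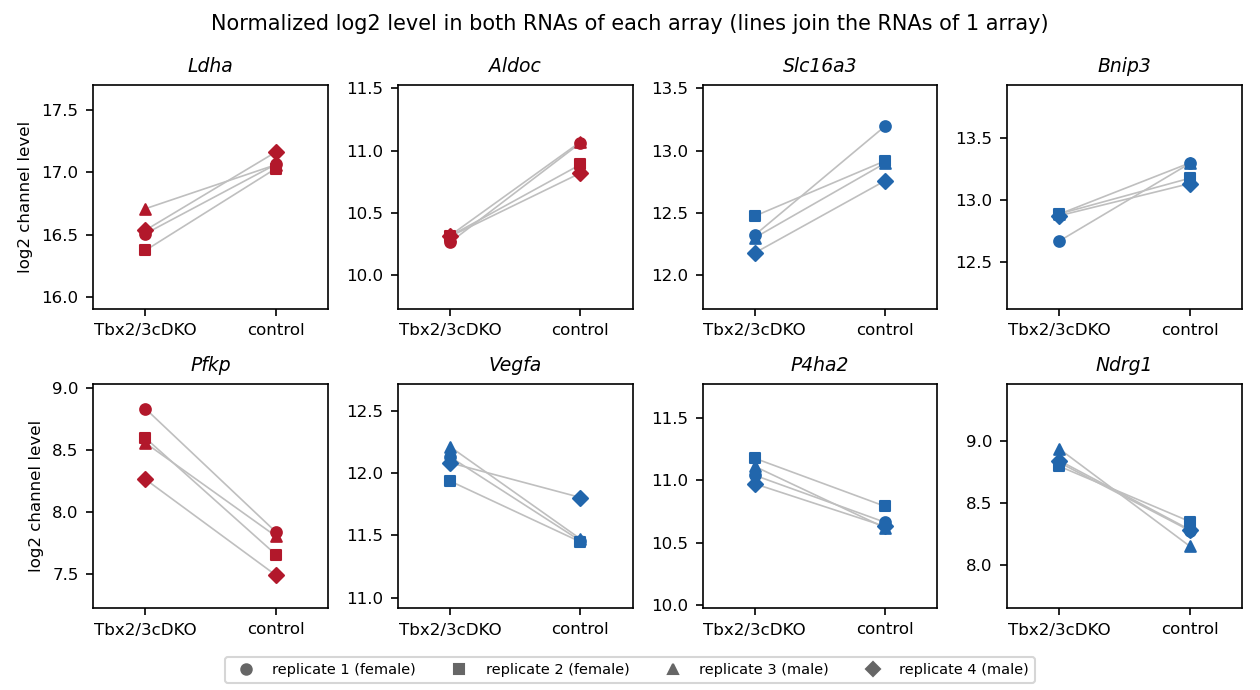
Normalized log2 channel level (y axis, each panel with its own range of equal width) of 8 members in Tbx2/3cDKO (left) and control RNA (right), with a line joining the RNAs of 1 array. Ldha, Aldoc, Slc16a3 and Bnip3 were lower and Pfkp, Vegfa, P4ha2 and Ndrg1 higher in Tbx2/3cDKO on every array.

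A chosen set of 10 pairs of related members was compared within each array at the brightest probes, and other related pairs were left out. The Pfkp differences rest on the probe with the larger rise (0.86 against 0.23). The mean difference of ratios was 1.18 ± 0.16 for Pfkp minus Pfkl, 0.65 ± 0.16 for Ldhb minus Ldha, 0.43 ± 0.10 for Hk1 minus Hk2 and 0.26 ± 0.12 for Eno2 minus Eno1 (SD, n = 4). Aldoc minus Aldoa was -0.34 ± 0.10, Pfkp minus Pfkm 0.82 ± 0.12, Slc2a1 minus Slc2a3 0.35 ± 0.18 and Egln3 minus Egln1 0.31 ± 0.19. Each of the 10 differences had 1 sign on all 4 arrays, and the smallest p that a two-sided exact sign-flip test allows with 4 arrays is 0.125. This depends on the pairs chosen, and no share over other gene pairs was computed. Pfkfb4, in a pair left out, was above Pfkfb3 on replicate 1 (0.14 against -0.21) and below it on replicate 3 (-0.06 against 0.01).

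Most of the lower enzymes gave bright spots. The median log2 intensity was 15.68 over enzyme probes, 10.88 over probes of the other hypoxia-induced genes and 10.66 over all genes. Of the 17 enzymes, 10 lay in the brightest 10% of genes, and 8 of these were lower, where 8.03% of 1842 genes were lower and 5.27% higher. Aldoc, Hk2 and Pfkl were lower outside it. The part of brightness in the fall of the enzymes was not tested further.

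The members that move glucose and lactate across the membrane were lower or not called. Of the same families outside the members, Slc2a4 (0.26) and Slc16a7 (0.28) were called higher and Slc16a8 lower. Slc16a3, a monocarboxylate transporter that exports lactate, had log2 levels of 12.32, 12.48, 12.30 and 12.18 in Tbx2/3cDKO and 13.20, 12.92, 12.90 and 12.76 in control RNA. The groups did not overlap, and replicate 1 had the largest difference. The ratio was -0.62 ± 0.18 (SD, n = 4), 1.54-fold lower (limma adjusted p = 0.000754), and a second probe gave -0.57. Slc2a3, a glucose transporter, had ratios of -0.52, -0.53, -0.22 and -0.26, more negative on the female arrays (limma adjusted p = 0.0106). Slc2a1, the widely expressed glucose transporter, had a ratio of -0.03 and was not called. Pdk1, a pyruvate dehydrogenase kinase, had a ratio of -0.19 and was not called. Pfkfb3 and Pfkfb4, which set the level of the phosphofructokinase activator, had ratios of -0.10 and 0.03, and neither was called.

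Bnip3, Higd1a and Ankrd37 were lower. Bnip3, a mitophagy receptor, had log2 levels of 12.67, 12.89, 12.89 and 12.88 in Tbx2/3cDKO and 13.30, 13.18, 13.30 and 13.13 in control RNA. The highest Tbx2/3cDKO level was below the lowest control level. The ratio was -0.39 ± 0.17 (SD, n = 4; limma adjusted p = 0.00301), and its other probes gave -0.40 and -0.25. Higd1a, a mitochondrial inner membrane protein, had ratios of -0.41, -0.36, -0.40 and -0.18 (limma adjusted p = 0.00490). Bnip3l, a related mitophagy receptor, had a ratio of -0.02 and was not called. Bnip3l minus Bnip3 was 0.38 ± 0.17 (SD, n = 4) and above 0 on each array. Ankrd37, an ankyrin repeat protein, had a ratio of -0.22 ± 0.11 (SD, n = 4; limma adjusted p = 0.0242).

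Beside Pfkp, the members called higher were Vegfa, Ndrg1, P4ha2 and Car9. Vegfa, the endothelial growth factor, had log2 levels of 12.13, 11.94, 12.21 and 12.08 in Tbx2/3cDKO and 11.46, 11.45, 11.47 and 11.80 in control RNA. Replicate 4 had the highest control level and the smallest difference, with no overlap between the groups. The ratio was 0.55 ± 0.21 (SD, n = 4), 1.46-fold higher (limma adjusted p = 0.000789), and the probe spans chromosome 17 from 46154387 to 46154446 (mm9). A dimmer Vegfa probe gave 0.23 (limma adjusted p over all probes 0.0393).

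Ndrg1, a stress-responsive gene, had log2 levels of 8.82, 8.79, 8.93 and 8.84 in Tbx2/3cDKO and 8.28, 8.35, 8.15 and 8.29 in control RNA. All Tbx2/3cDKO levels were above all control levels. The ratio was 0.58 ± 0.14 (SD, n = 4) (limma adjusted p = 0.000757). P4ha2, a collagen prolyl hydroxylase, had log2 levels of 11.04, 11.18, 11.11 and 10.97 in Tbx2/3cDKO and 10.66, 10.79, 10.62 and 10.63 in control RNA. It was higher without overlap, at a ratio of 0.40 ± 0.06 (SD, n = 4; limma adjusted p = 0.00182). P4ha1, the related subunit, had a ratio of -0.10 and was not called, and P4ha2 minus P4ha1 was 0.50 ± 0.12. Car9, a membrane carbonic anhydrase, had ratios of 0.23, 0.19, 0.16 and 0.29 (limma adjusted p = 0.0228).

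The remaining members were not called. Ddit4, an inhibitor of mTORC1 signalling, had ratios of 0.05, 0.31, 0.17 and 0.10, and Adm, which encodes the peptide adrenomedullin, had -0.03, 0.38, 0.05 and 0.05. Egln1 and Egln3, the prolyl hydroxylases that mark HIF alpha subunits for decay, had ratios of -0.11 and 0.21, and the limma adjusted p of Egln3 was 0.0725. Kdm3a, a histone demethylase, had ratios of -0.27, -0.05, 0.11 and 0.18, above 0 on the male and below 0 on the female arrays.

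The HIF alpha subunits gave no single direction. Hif1a had ratios of -0.10, -0.10, 0.35 and 0.37, above 0 on the male and below 0 on the female arrays (limma adjusted p = 0.426). Epas1, also called HIF-2 alpha and known for its level in endothelium, had a ratio of 0.07 at its brightest probe, on chromosome 17 from 87230678 to 87230737 (mm9). A second Epas1 probe, from 87232615 to 87232674, had ratios of 1.35, 1.35, 1.20 and 0.75 and was called higher (limma adjusted p over all probes 0.000295), so whether Epas1 counts as called depends on the probe. The remaining probe, from 87230587 to 87230646, was well above background in all 4 Tbx2/3cDKO channels and in 0 of 4 control channels, so its control level is only a bound and no ratio is given. All 3 probes carry the same transcript accession in the files.

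**Figure D4:**
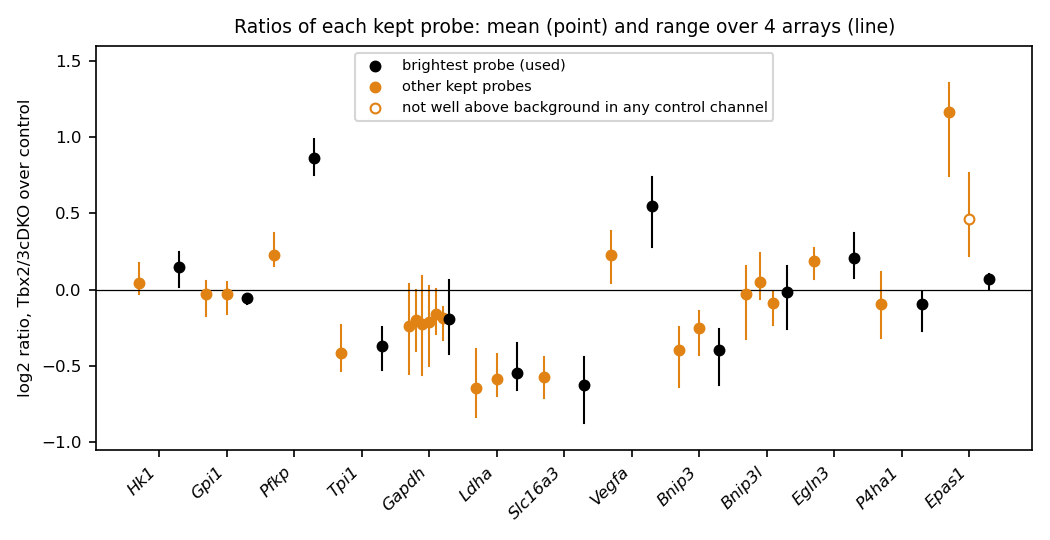
Mean log2 ratio of Tbx2/3cDKO over control (y axis) and its range over 4 arrays for every kept probe of the members with more than 1 (x axis), with an open symbol for the Epas1 probe that was at background in all control channels. Probes of Ldha, Tpi1, Slc16a3 and Gapdh lie close together, while those of Epas1 run from 0.07 to 1.16 and those of Pfkp from 0.23 to 0.86.

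The further pathway lists are read beside the 13.5% of all genes called higher and the 10.1% called lower. Of 28 other isozymes and regulators of glycolysis tested, 12 were higher and 4 lower, with a median ratio of 0.12. Some of these calls rest on genes that passed the filter through 1 group alone. Among the higher, Pdk4 was well above background in 3 Tbx2/3cDKO and 0 control channels, and Pklr in 4 and 1. Among the lower, Slc16a8 was so in 0 Tbx2/3cDKO and 3 control channels. Eno3, the muscle enolase, had a ratio of -0.62 and Gpd2, a mitochondrial glycerol-3-phosphate dehydrogenase, -0.42, while Pdk2, a pyruvate dehydrogenase kinase, had 0.37 and Mpc1, of the mitochondrial pyruvate carrier, 0.31 (limma adjusted p 0.000297 to 0.00490). In the pentose phosphate pathway, 2 of 10 genes were higher and 0 lower, with a median of -0.01. These were Rpia, an isomerase of ribose-5-phosphate, at 0.59 and Prps1, which makes phosphoribosyl pyrophosphate, at 0.36.

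Of 14 HIF pathway components, 3 were higher and 0 lower, a share near that of all genes, with a median of 0.03. Cited4, a binding partner of the coactivators Crebbp and Ep300, had a ratio of 0.74, Hif3a, another alpha subunit, 0.40, and Arnt, the shared beta subunit, 0.21. The Arnt call was lost in 8 of 15 alternatives. Of 47 other known HIF targets, 13 were higher and 5 lower, with a median of 0.05. Those with the smallest adjusted p were Epo, the erythropoietin gene, at -0.85, Car12, a carbonic anhydrase, at -0.49, Anxa2, a membrane-binding annexin, at 0.55 and Angptl4, an inhibitor of lipoprotein lipase, at 0.52. Edn1, among the higher, was well above background in 4 Tbx2/3cDKO and 0 control channels, so its control level is only a bound.

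Markers of the cell types that a dissected otocyst can hold also differed, read beside the 13.5% of all genes called higher and the 10.1% called lower. All 13 endothelial markers tested were higher, with a median of 0.60 and summed levels of 32898 to 35986 in Tbx2/3cDKO and 22996 to 25737 in control RNA. Of 15 erythroid markers 14 were higher, with a median of 1.05 and summed levels of 1076990 to 1166810 in Tbx2/3cDKO and 363101 to 567204 in control RNA. No marker of these lists was at background in either group. Neuronal markers were higher in 11 of 13 (median 1.05; summed levels 37971 to 44715 in Tbx2/3cDKO and 25971 to 28751 in control RNA), and periotic mesenchyme markers in 10 of 13 (median 0.38; 123088 to 131146 and, in control RNA, 88094 to 96111).

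Macrophage markers were higher in 7 of 11 (median 0.37; summed levels 7151 to 9531 in Tbx2/3cDKO and 5907 to 6460 in control RNA), with 1 of them in no control channel well above background. In a list named for dissection stress, 5 of 10 genes were higher (median 0.26), with 1 likewise not above background in controls. Its summed levels were 13762 to 16305 in Tbx2/3cDKO and 12496 to 13888 in control RNA. Whether dissection raised these genes was not tested. Otic epithelium markers were lower in 9 of 13 and higher in 1, with a median of -0.35. Of these marker lists, otic epithelium alone had a median below 0. The part of these cell types in the ratios of the members was not tested.

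**Figure D5:**
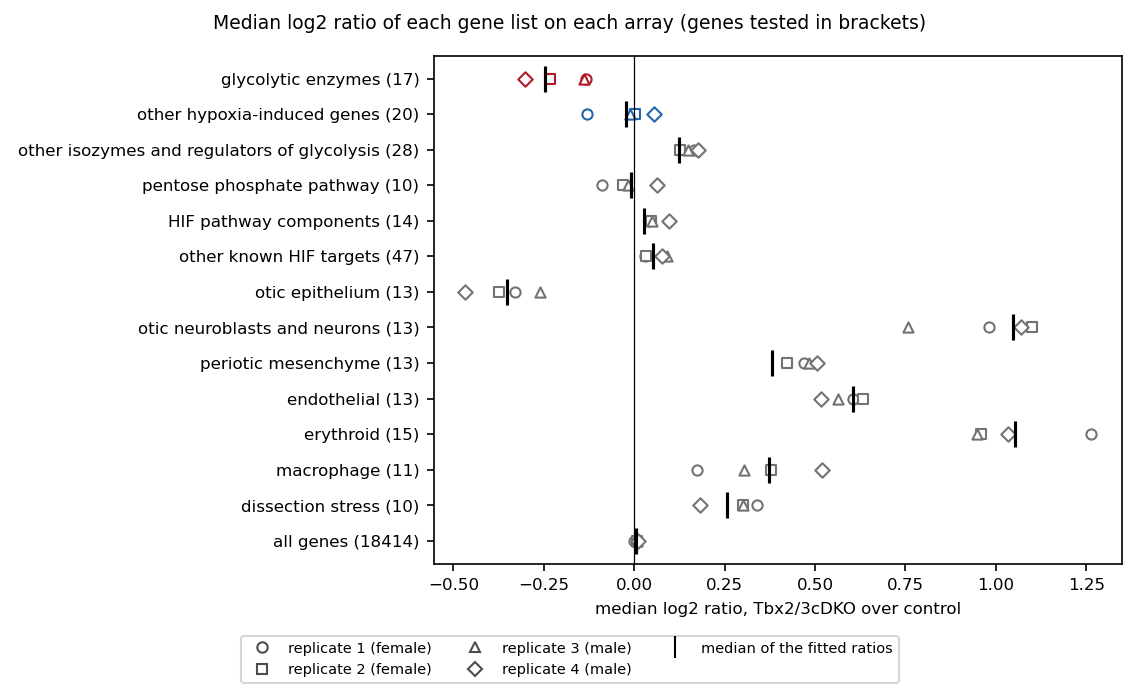
Median log2 ratio of Tbx2/3cDKO over control (x axis) for each gene list on each array, with the median of the fitted ratios as a bar. The enzymes and otic epithelium markers lie left of 0 on every array, the other hypoxia-induced genes lie around 0, and the neuronal, vascular and mesenchymal lists lie right of it.

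Within each sex, where both dye orientations are present, the enzyme median was -0.21 on the male and -0.26 on the female arrays, and that of the other hypoxia-induced genes was -0.02 on the male and -0.06 on the female arrays. In the limma test of the male minus female difference, 0 of 39 members passed an adjusted p of 0.05, beside 2 of 18414 genes. The test had 1 residual degree of freedom. An unadjusted p under 0.05 was seen in 5 members, and the share of all genes at that level was not counted. The members with the largest differences were Hif1a at 0.46, Pdk1 at 0.36 and Kdm3a at 0.30 (limma adjusted p 0.135, 0.157 and 0.203). With median centring in place of loess normalization these 3 passed the threshold, and the share of all genes that passed there was not counted.

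The number of called members depended on single arrays. Without replicate 1, 6 enzymes were lower, as Hk2, Gapdh, Pgam1, Eno1 and Pkm2 lost their calls, and 6.23% of all genes were lower. Without replicate 3, 7 enzymes were lower, as Hk2, Gapdh, Pgam1 and Eno1 lost their calls, and 5.58% of all genes were lower. Pfkp was higher and Ldha, Aldoc, Aldoa, Tpi1, Pgk1 and Pfkl lower without any 1 of the arrays, as were Slc16a3, Bnip3 and Higd1a, while Vegfa, Ndrg1 and P4ha2 stayed higher.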

How the data were processed

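The arrays were read with Agilent Feature Extraction (version 10.7.3.1), which wrote the mean and background intensities of each spot, per the file headers and per the notes on processing that the submitters gave. Its log10 ratios (red to green) were background-subtracted and dye-normalized, per the file headers. The deposited series table gives a signed fold ratio, a score below -1 where the mutant was lower. Turned to log2, these deposited values lay within 0.001 of the software's for 90.9% to 93.3% of 39429 probes.

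Mean signals were corrected with normexp (offset 50) and normalized by loess within arrays in limma 3.58.1 under R 4.3.3. No spot was saturated (0), and 21 to 32 outlier spots an array were dropped. Between 58.4% and 63.2% of spots were well above background. Spots of a probe were averaged, probes were kept (23184) if at least 3 of 4 arrays showed them well above background in the mutant or in the control channel, and the brightest kept probe stood for each gene. The genotype effect, signed by dye, and an intercept for dye were fitted with lmFit and eBayes, with Benjamini-Hochberg adjustment over all genes. Channel levels follow loess and Aquantile normalization. SDs are of ratios before the dye term is removed. All arrays lay on 1 slide, so no slide batch could be tested. On simulated data, 94 of 100 probes changed 1.5-fold and 100 of 100 changed 2-fold were recovered, and 16 of 210 calls were unchanged probes. The noise was set independently on each array, and the other probes of the 23184 were unchanged, a far smaller changed share than was called here. Changes under 1.5-fold were not simulated, and 1 enzyme alone was lower by more than that, so recovery of the smaller falls is not known.

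Names came from a RefSeq table (GRCm38.p6), used for names, and probe coordinates are mm9, as in the files; exons and UTRs at the probes were not determined. The members and lists were chosen with earlier results of these data known. All members are named, with up to 4 genes of each further list by smallest adjusted p and a few more where a limit turns on them. The alternatives varied background correction, normalization, ratio source, filter, probe rule, dye term, weights, moderation, grouping and left-out arrays. Figures were drawn with matplotlib 3.10.9.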

Additional observations from a re-analysis of the deposited data

Results flagged for a closer look

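The ratio of Hif1a was above 0 on both male arrays (mean 0.36) and below 0 on both female arrays (mean -0.10), a male minus female difference of 0.46 that did not pass the limma test (adjusted p = 0.135). Kdm3a likewise had means of 0.14 on the male and -0.16 on the female arrays, a difference of 0.30 (limma adjusted p = 0.203). Epo had a ratio of -0.92 on replicate 4 against -0.83 on each of the other 3 arrays, so replicate 4 stood apart from a narrow group. Of 52 results screened for such a single array, Epo was the 1 singled out, and chance picks about 1 in 20 groups of this size.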

How the results depend on the processing

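Of 21 called members, 13 kept the call in all 15 alternatives, 8 lost it in at least 1 (Hk2, Gapdh, Pgam1, Eno1, Pkm2, Slc2a3, Ankrd37 and Car9) and 0 were called in the opposite direction. Of 18 uncalled members, Egln3 was called with no dye term and without replicate 2, and Epas1 with the mean of its probes. Leaving out each array gave 6 to 10 lower and 1 to 1 higher enzymes, 3 to 5 lower and 3 to 5 higher other hypoxia-induced genes, 1028 to 1787 lower and 1560 to 2493 higher genes, enzyme medians of -0.26 to -0.23 and medians of the other genes of -0.07 to -0.01. The higher counts over all genes were 1670 without replicate 1 and 1560 without replicate 3, and the lower counts 1148 and 1028. Fewer arrays were fitted there, and a further cause was not tested. The sex difference passed in 3 members with median centring, against 0 with loess. The share of all genes with median centring was not counted, and the cause was not tested. Median centring gave 2105 higher and 1363 lower genes. Counting transporters and regulators with the enzymes turned the median of the other genes to 0.05. The fit is itself paired, since each ratio sets the mutant and control RNA of 1 array against each other. The brightest probes of the members were well above background in all channels, but 1 other Epas1 probe, which enters the mean of its probes, was so in 0 of 4 control channels.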
